A study of Ananas comosus with 48 samples.

Results

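The miR160 family of pineapple was followed in small RNA of the shoot apex. Members were all sequences of the deposited table whose name was miR160a-5p, miR160a-3p, miR160b-3p, miR160d-5p, miR160d-3p or miR160e-3p, which made 6 of the 190 listed miR sequences, 2 of the 5p arm and 4 of the 3p arm. Through sequences shared between genes they carried 12 of the 253 miR names in the deposited list, for 6 miR160 genes, a to f. Plants of the cultivar MD1 in a commercial field received an injection into the plant centre of either 10 ml of water, the control, or the same volume holding 50 mg of ethephon, which releases ethylene and is used to force flowering. Apices, with leaf bases removed and leaf primordia still attached, were taken at 8 samplings, labelled 6 hours, days 1 to 6 and day 8. The plants labelled 6 hours were cut on the morning of the injection, and the label gives the hour at which they had been processed. Each treatment and sampling had 3 libraries of 3 apices each, so that 48 libraries fell into 16 groups. All plants were of the same cultivar and field. The paper describes a plot of 3 replications, each holding a water and an ethephon block of plants. Each replication was cut at every sampling, so the 8 samplings of a treatment came from the same blocks. Replicate numbers were not tied by the labels to a field block.

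miR160 is among the miRs conserved across land plants. A hairpin precursor is cut into a duplex of a 5p and a 3p strand, and the 5p strand, loaded into an ARGONAUTE protein, guides the cleavage of transcripts of auxin response factors (ARFs). In Arabidopsis the targets are ARF10, ARF16 and ARF17, which mostly repress auxin-responsive transcription, and loss of this control disturbs leaf, flower and root formation. The 3p strand is usually degraded after the duplex is opened. ARF transcripts and target sites were not analysed here.

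The 6 sequences are shown because the arms are reported separately below, and because members of an arm can differ by only a few bases. All are 21 nt long, written 5′ to 3′ as in the deposited table, with the seed (bases 2 to 8) in capitals.
miR160a-5p: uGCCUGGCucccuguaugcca
miR160d-5p: uGCCUGGCucccugaaugcca
miR160a-3p: gCGUGCGAggagccaagcaug
miR160b-3p: gCGUGCAAggagccaagcaug
miR160d-3p: gCAUCUGGggagucaugcagg
miR160e-3p: gCAGUUGGggagccaugcagg
The 5p sequences share the seed GCCUGGC, which no other of the 190 listed sequences has, and differ at a single base, U15A, counted from 1 at the 5′ end with the miR160a-5p base first. miR160a-5p also stands for miR160b-5p and miR160c-5p, and miR160d-5p for miR160e-5p and miR160f-5p. Each 3p sequence has a seed of its own. miR160a-3p differs from miR160b-3p, which also stands for miR160c-3p, by G7A. miR160d-3p differs from miR160e-3p, which also stands for miR160f-3p, by U4G, C5U and U13C. Between the 3p sequences of miR160a to c and those of miR160d to f there were 7 or 8 differences. In the duplexes of the named genes, laid out with a 2-base overhang, 14 or 15 of 19 positions formed Watson-Crick pairs and 2 were unpaired. Base 15 of the 5p strand, which tells both 5p members apart, faced its 3p partner as a G:U pair in miR160a to c. It was unpaired in the miR160d duplex and formed a Watson-Crick pair in those of miR160e and f. Outside the family the nearest listed sequence of the same length, compared base by base without gaps, differed at 8 or more bases.

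Total counts in listed miRs ran from 18581 to 91791 per library (median 61482), from 10187012 to 19683245 sequencing tags. The lowest total belonged to replicate 2 of ethephon at day 5. Levels are given in CPM, counts scaled to 1000000 listed miR counts of a library with trimmed mean of M-values (TMM) factors, as mean ± SD. A floor of 3 counts in a library corresponded to between 29.7 and 140 CPM. Of 7 families chosen as markers of the shoot apex and leaf primordia, 6 were in the table, all with counts, and miR165 was not measured. Together they took 8.27% to 21.1% of the counts in water and 11.7% to 24.1% in ethephon libraries, with miR166 the most abundant. Of 6 families chosen for vascular, leaf and nutrient functions, 5 had counts and miR397 was at 0, and together they took 0.144% to 0.823% in water and 0.098% to 1.21% in ethephon libraries. The part of these families in the results below was not tested. In bulk apices, fewer cells that hold a miR and less of it per cell cannot be told apart.

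The family took 16031 counts over all libraries, 0.545% of the listed miR counts. The 5p members made up 90.8% of these and the 3p members 9.21%. miR160a-5p alone had 10600 counts and held position 15 by abundance among the listed sequences. miR160d-5p had 3954 counts. The 3p members were scarce, with 665 counts of miR160a-3p, 422 of miR160b-3p, 256 of miR160e-3p and 134 of miR160d-3p. Both 5p members and miR160a-3p were counted in all 48 libraries, miR160b-3p in 47, miR160e-3p in 46 and miR160d-3p in 39. The filter on low counts kept 57 sequences and 5 of the 6 members. miR160d-3p fell under it and is given by its counts. The mismatches allowed in the alignment are unknown, so that reads of the 5p members, a single base apart, could have been exchanged between them. The ratio of miR160d-5p to miR160a-5p ran from 0.191 to 1.17 among libraries. A varying ratio cannot tell whether a part of the reads was exchanged, and this was not tested.

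Both 5p members, the strands that guide ARF cleavage, were down-regulated in ethephon-treated apices. Averaged over the 8 samplings, the log2 fold change of ethephon over water was -0.90 (SE 0.072, adjusted p = 2.14e-14 in the edgeR quasi-likelihood test) for miR160a-5p, 1.87-fold lower, and -0.98 (SE 0.0968, adjusted p = 1.18e-11) for miR160d-5p, 1.97-fold lower. Among the 57 sequences tested these were the lowest 2 fold changes, miR160d-5p first. The median of all 57 was -0.05, and 22.8% of them were called differentially expressed (DE) and lower, at an adjusted p under 0.05. None of the 3 tested 3p members passed, 1 had an unadjusted p under 0.05, and DESeq2 called 0 and limma-voom 1 of them. The mean miR160a-5p level was 4755 ± 1025 CPM in water (n = 24) and 2527 ± 385 CPM in ethephon libraries (n = 24). Its lowest water library, at 3547 CPM, lay above its highest ethephon library, at 3156 CPM, so that the treatments did not overlap over all samplings. miR160d-5p averaged 1844 ± 984 CPM in water and 916 ± 401 CPM in ethephon libraries, and here the ranges overlapped, from 952 to 4644 CPM and from 469 to 1948 CPM. As reads per 10000000 sequencing tags, miR160a-5p was at 209 ± 48.8 in water and 102 ± 17.8 in ethephon libraries.

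miR160a-5p was examined sampling by sampling. At 6 hours its levels were 4249, 4596 and 3605 CPM in the water libraries and 2114, 2542 and 1658 CPM in the ethephon libraries. At day 1 they were 4031, 3982 and 3556 CPM in water and 2691, 2236 and 2914 CPM in ethephon. Every ethephon library was below every water library at both samplings, with the narrower gap at day 1. At day 2, water gave 5376, 4508 and 6669 CPM and ethephon 3040, 2055 and 3156 CPM. At day 3, water gave 6988, 6225 and 4225 CPM and ethephon 2455, 2148 and 2322 CPM. These were the samplings of the highest single water libraries, whereas the ethephon libraries of day 3 were close together. At day 4 the values were 3547, 4062 and 4745 CPM in water against 2487, 2585 and 2506 CPM in ethephon. At day 5 they were 4514, 3952 and 3739 CPM against 1936, 3128 and 2567 CPM. The ethephon library nearest to water at day 5 was replicate 2, the library of fewest counts, with 67 reads of miR160a-5p. At day 6 water had 5328, 6624 and 4898 CPM and ethephon 2566, 2888 and 2258 CPM. At day 8 water had 5436, 5115 and 4160 CPM and ethephon 2754, 2799 and 2850 CPM. At all 8 samplings no ethephon library reached the lowest water library. miR160a-5p was the single sequence of the 57 tested for which this held. Over all pairs of a sequence and a sampling, 15.8% had every ethephon library below every water library.

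The fold change of miR160a-5p was called at 7 of the 8 samplings. It was lowest at day 3, -1.33 (SE 0.203, adjusted p = 3.12e-06), and stood at -0.98 at 6 hours (adjusted p = 0.001), -1.01 at day 2, -1.13 at day 6 and -0.81 at day 8. At day 1 it was -0.56 (SE 0.204, adjusted p = 0.0881) and missed the threshold. The share of the 57 sequences that was called and lower was 3.51% at 6 hours, 1.75% at day 1, 1.75% at day 2, 14% at day 3, 3.51% at day 4, 7.02% at day 5, 3.51% at day 6 and 15.8% at day 8. At day 2, miR160a-5p was therefore the single sequence called lower, and at day 1 that place was held by miR160d-5p. The call at day 4 (log2 fold change -0.70, adjusted p = 0.0305) was lost without water replicate 2 or 3 or ethephon replicate 1 or 2 of that day, with adjusted p from 0.0544 to 0.142, and the call at day 5 (-0.70, adjusted p = 0.0227) was lost without replicate 1 of water (adjusted p = 0.0915) or of ethephon (adjusted p = 0.157). Without TMM factors the fold change at 6 hours was -0.64 (adjusted p = 0.139), and the calls at days 4, 5 and 6 were lost as well. With a replicate number left out of every group, the call at day 4 was lost for each number (adjusted p from 0.117 to 0.225) and that at day 5 without number 1 (-0.44, adjusted p = 0.402). The call at day 8 was lost without number 1 (-0.72, adjusted p = 0.0778) or 2 (-0.77, adjusted p = 0.0907).

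miR160d-5p followed another course. At 6 hours its levels were 2323, 2884 and 1428 CPM in water and 1550, 1521 and 1948 CPM in ethephon libraries. At day 1 water gave 4644, 3705 and 4048 CPM and ethephon stood at 1318, 895 and 1351 CPM. The treatments overlapped at 6 hours and were widely apart at day 1, where the water libraries held the 3 highest values of the series. At day 2, water gave 1189, 1157 and 1735 CPM and ethephon 926, 696 and 1269 CPM. At day 3, water gave 1496, 1642 and 952 CPM and ethephon 567, 652 and 515 CPM. The groups overlapped at day 2 and were apart from day 3 on. The values at day 4 were 1306, 1115 and 1214 CPM in water and 469, 687 and 946 CPM in ethephon. At day 5, they were 1642, 1618 and 1828 CPM and 611, 1354 and 764 CPM. Replicate 2 of ethephon was again the library nearest to water, with 29 reads of miR160d-5p. At day 6, water had 1458, 1558 and 1008 CPM and ethephon 737, 744 and 603 CPM. At day 8, water had 1396, 1408 and 1506 CPM and ethephon 663, 670 and 540 CPM. All ethephon libraries lay below all water libraries at 6 of the 8 samplings.

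The fold change of miR160d-5p was negative at all 8 samplings and was called at 5 of them. At day 1 it was -1.80 (SE 0.267, adjusted p = 1.5e-06), 3.49-fold lower, with -1.22 at day 3 and -1.20 at day 8. At days 5 and 6 it was -0.97 and -0.94. It missed the threshold at 6 hours (-0.39, adjusted p = 0.443), day 2 (-0.52, adjusted p = 0.43) and day 4 (-0.80, adjusted p = 0.0548) in edgeR. Day 4 was called in DESeq2 (-0.82, adjusted p = 0.015) and limma-voom (-0.86, adjusted p = 0.0292), with RLE factors (0.0267), with TMM without the most abundant sequence (0.0357), on the scale of all sequencing tags (-1.14, adjusted p = 0.00757) and without replicate 3 of ethephon at that day (-1.08, adjusted p = 0.0237). Without replicate 1 of every group it was -0.51 (adjusted p = 0.639). Without replicate 1 of every group the calls at day 3 (-1.14, adjusted p = 0.0777), day 5 (-0.76, adjusted p = 0.34) and day 6 (-0.92, adjusted p = 0.214) were lost, and without replicate 2 that at day 6 (-0.87, adjusted p = 0.358). Single libraries decided the calls at days 5 and 6. At day 5 the call was lost without replicate 3 of water or replicate 1 or 3 of ethephon (adjusted p from 0.0546 to 0.157), and at day 6 it was lost without any of the 6 libraries other than replicate 3 of water (adjusted p from 0.0746 to 0.187). Without TMM factors the fold changes at days 3, 5 and 6 were -0.93, -0.95 and -0.74 and were not called, and on the scale of all sequencing tags day 2 was called instead (-1.06, adjusted p = 0.0192) and day 3 was not (-0.83, adjusted p = 0.0854).

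**Figure D1:**
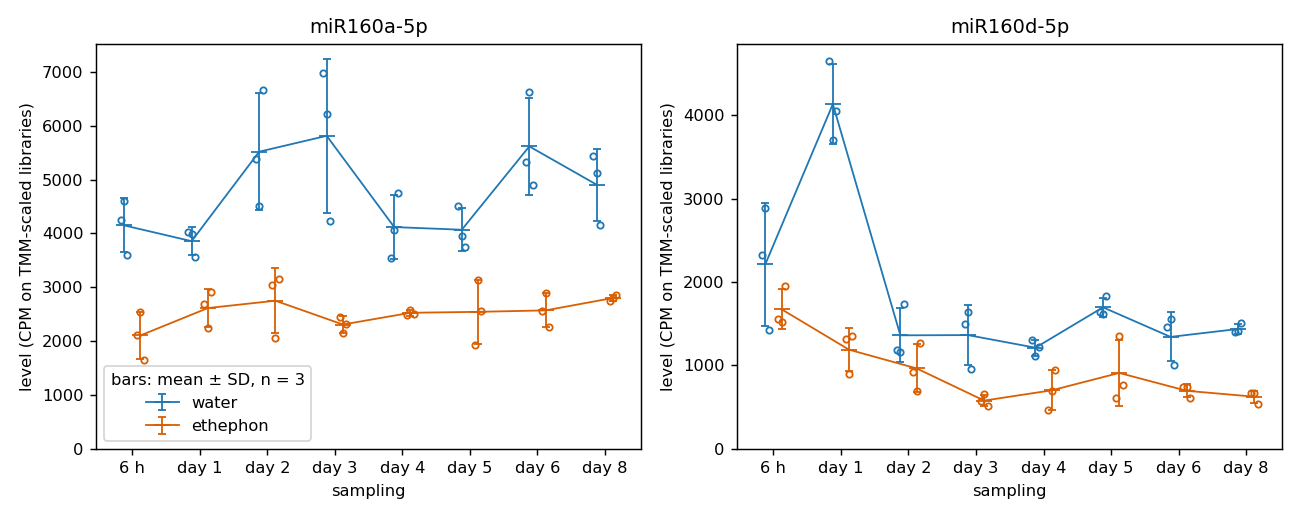
Levels of miR160a-5p and miR160d-5p in CPM on TMM-scaled libraries (vertical axes) at the 8 samplings (horizontal axis), with water in blue and ethephon in orange. Circles are libraries, and bars give the mean ± SD of 3. All ethephon libraries of miR160a-5p lie at or under 3156 CPM and all water libraries at or above 3547 CPM, while miR160d-5p in water stands at 4132 ± 475 CPM at day 1 and between 1212 and 2212 CPM elsewhere.

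The question whether the response of a member to ethephon changed between samplings was put to an F test of the interaction. No tested member passed in edgeR, with adjusted p = 0.36 for miR160a-5p and 0.12 for miR160d-5p, while 1.75% of the 57 sequences were called. At an unadjusted p under 0.05 there were 2 members, miR160d-5p and miR160b-3p. DESeq2 called both of them, and limma-voom called miR160d-5p. The share of 1.75% is that of edgeR, and no share over all 57 sequences is given for the other tools. All 8 differences tested together gave adjusted p = 5.87e-11 for miR160a-5p and 5.75e-09 for miR160d-5p, against 38.6% of the 57 called. The contrast of day 1 with the mean of the other 7 samplings, chosen with the day 1 level already known, gave -0.94 (SE 0.284, adjusted p = 0.0348) for miR160d-5p, the single sequence called lower (1.75%), and 0.39 (SE 0.218, adjusted p = 0.439) for miR160a-5p. This call of miR160d-5p was lost without replicate 1 or 3 of water or any of the ethephon replicates of day 1, without replicate 3 of water at day 3 and without replicate 1 of water at day 8, with adjusted p from 0.0516 to 0.267.

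Within the water series, both 5p members changed over the samplings, as 47.4% of the 57 sequences did. The adjusted p was 4.33e-07 for miR160d-5p and 0.031 for miR160a-5p. miR160d-5p had its highest group mean at day 1, 4132 ± 475 CPM (n = 3), against 2212 ± 735 CPM at 6 hours, a log2 step of 0.91 (SE 0.256, adjusted p = 0.0529) that missed the threshold in edgeR and passed in DESeq2 (adjusted p = 0.0161) and limma-voom (adjusted p = 0.00289). From day 1 to day 3 it fell by 1.61 on the log2 scale (SE 0.266, adjusted p = 7.55e-06), with 8.77% of the sequences called lower at that step. miR160a-5p rose over the same step by 0.59 (SE 0.201, adjusted p = 0.035), with 7.02% called higher. The 5p members thus moved in opposite directions in water between these days. The rise of miR160a-5p was lost without any replicate of water at day 1, without replicate 1 or 2 of water at day 3, without replicate 1 of water at day 8 and without replicate 1 of ethephon at day 5 (adjusted p from 0.0537 to 0.181), and without TMM factors it was 0.46 (adjusted p = 0.242). The change of miR160a-5p over the water samplings was lost without replicate 3 of day 1, 1 or 2 of day 3, 3 of day 5, 2 of day 6 or 2 of day 8 (adjusted p from 0.0567 to 0.074). Summed into a single 5p feature, the step from day 1 to day 3 in water was -0.30 (adjusted p = 0.262).

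In the ethephon series 50.9% of the sequences changed over the samplings. miR160d-5p was among them (adjusted p = 5.08e-05), with its highest mean at 6 hours, 1673 ± 239 CPM, and its lowest at day 3, 578 ± 69.1 CPM. From 6 hours to day 1 the log2 step was -0.50 (adjusted p = 0.221), and from day 1 to day 3 it fell by 1.03 (SE 0.277, adjusted p = 0.0139), with 8.77% of the sequences called lower. That call was lost without TMM factors (-0.86, adjusted p = 0.0778) and on the scale of all tags (-0.73, adjusted p = 0.125). miR160a-5p gave adjusted p = 0.601, and its ethephon means ran from 2104 ± 442 CPM at 6 hours to 2801 ± 48.3 CPM at day 8. The samplings differ in the hour of processing as well as in age, since the plants labelled 6 hours were handled later in the day, and both cannot be told apart at that sampling.

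Ordered by mean level, the 16 groups of miR160a-5p separated by treatment, with all 8 water groups (3856 to 5813 CPM) above all 8 ethephon groups (2104 to 2801 CPM). Day 3, day 6 and day 2 in water were highest, and 3 of the 15 gaps between neighbours in the order exceeded the larger SD of the pair. They were the gaps from day 8 to 6 hours in water, from day 1 in water to day 8 in ethephon, and from day 4 to day 3 in ethephon. In miR160d-5p only the gap between day 1 in water and the next group, 6 hours in water, exceeded the larger SD. There ethephon at 6 hours held position 4, above the water groups of days 2, 3, 4, 6 and 8. The lowest groups were the ethephon groups of days 3, 8, 6 and 4, from 578 to 701 CPM, and neighbours among them did not differ beyond their spread.

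**Figure D2:**
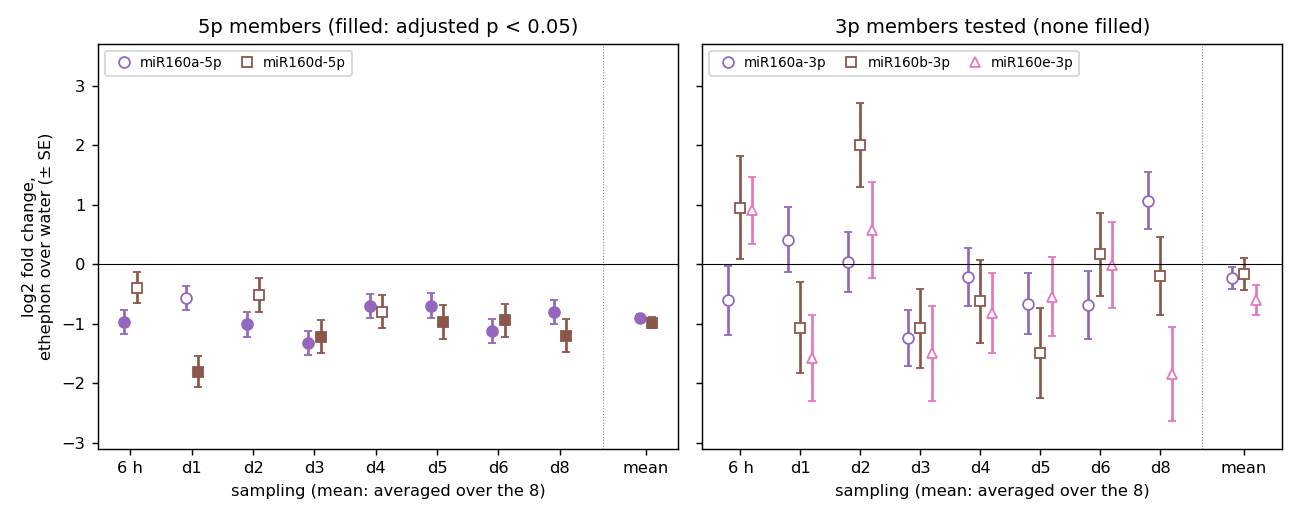
Log2 fold change of ethephon over water with its SE (vertical axis) at each sampling and averaged over the 8 (horizontal axis), for the 5p members on the left and the tested 3p members on the right, from the edgeR fit. Filled symbols have an adjusted p under 0.05. The 5p values lie between -1.80 and -0.39, while the 3p values spread from -1.85 to 2.00 with wider errors and none is filled.

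The relative amount of both 5p members was compared as the log2 ratio of miR160d-5p to miR160a-5p, with 0.5 added to each count. Geometric means of the ratio were 0.359 in water and 0.341 in ethephon libraries. The difference averaged over samplings was -0.08 (two-sided permutation test within samplings, p = 0.504 with 100000 permutations), and without day 1 it was 0.09 (permutation p = 0.38). Ethephon was lower at 4 and higher at 4 samplings. At day 1 the water libraries had ratios of 1.15, 0.931 and 1.14 and the ethephon libraries 0.492, 0.402 and 0.466. At day 2 the order was the other way, with 0.222, 0.258 and 0.261 in water and 0.307, 0.341 and 0.405 in ethephon. At day 8 ethephon was again lower in all libraries, from 0.192 to 0.244 against 0.258 to 0.363. With 3 libraries against 3 an exact test of a single sampling cannot give a p under 0.1. Day 1 in water was the single group whose mean ratio was above 1, at 1.07.

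The relation between miR160a-5p and miR160d-5p across libraries of a treatment missed the threshold. Pearson's r of log2 CPM was -0.26 in water (Spearman's rho -0.18, n = 24, permutation p = 0.219 and 0.397, adjusted p = 0.292 for r) and -0.01 in ethephon libraries (rho 0.17, n = 24, permutation p = 0.958 and 0.434, adjusted p = 0.958). Leaving out the 2 libraries farthest from the median of miR160a-5p gave r of -0.30 and 0.26. Within the groups, deviations of the libraries from their group means had r of 0.65 in water (rho 0.56, permutation within groups p = 0.0139 and 0.0242, adjusted p = 0.0558) and 0.53 in ethephon (rho 0.40, permutation p = 0.0622 and 0.125, adjusted p = 0.124), and 0.54 and 0.35 without the 2 farthest libraries. These 4 relations were adjusted together and none passed. Deviations of a library share its scale factor, and over all 1596 pairs of tested sequences their r had a median of 0.04 in both treatments. The 95th percentile of these pairs was 0.545 in water and 0.497 in ethephon.

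The 3p members, the strands usually discarded from the duplex, were not called lower in the averaged contrast. For miR160a-3p the log2 fold change was -0.24 (95% interval -0.60 to 0.12, adjusted p = 0.342), and for miR160b-3p it was -0.17 (-0.69 to 0.35, adjusted p = 0.671). For miR160e-3p it was -0.60 (-1.11 to -0.09, adjusted p = 0.0567), and limma-voom (-0.67, adjusted p = 0.0271) and the scale of all sequencing tags (-0.71, adjusted p = 0.0296) called it. Without replicate 2 of every group it was -0.24 (adjusted p = 0.64), without replicate 3 -0.96 (adjusted p = 0.0234), and over 59 alternatives it was called in 14. Changes of the size seen in the 5p members lay outside the intervals of miR160a-3p and miR160b-3p and inside that of miR160e-3p. By averaged fold change miR160e-3p held position 7 from the lowest among the 57 sequences, and its difference from the 5p members was not tested. With the 4 sequences summed, added after the values were seen, the log2 fold change was -0.11 (adjusted p = 0.583). At single samplings 0 of 24 tests of the 3p members were called in edgeR, 5 had an unadjusted p under 0.05, DESeq2 called 2 and limma-voom 0. Of all 57 sequences, 1.75% to 15.8% were called lower at a given sampling in edgeR. The absence of calls in 24 tests therefore does not by itself set the 3p members apart from other sequences. The 3p signs were mixed, 16 negative and 8 positive, whereas all 16 of the 5p members were negative.

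Every ethephon library was below every water library in 4 of the 24 pairs of a tested 3p member and a sampling (16.7%, against 15.8% over all 57 sequences), and above in 2 (8.33%, against 10.3%). miR160a-3p had 10, 30 and 28 reads in water and 15, 16 and 15 in ethephon at day 3, and its log2 fold change there was -1.24 (SE 0.47, adjusted p = 0.0633). At day 8 the sign was opposite, with 8, 12 and 22 reads in water and 18, 18 and 31 in ethephon libraries (1.06, SE 0.476, adjusted p = 0.0791). In CPM the groups were apart at both days, from 272 to 640 against 172 to 193 at day 3 and from 119 to 281 against 302 to 523 at day 8. They were apart at day 5 too, with 25, 15 and 26 reads in water and 12, 5 and 11 in ethephon (-0.66, SE 0.51, adjusted p = 0.443). miR160b-3p had 3, 6 and 6 reads in water and 18, 8 and 16 in ethephon at day 2 (2.00, SE 0.712, adjusted p = 0.0896), and its groups overlapped in CPM at all 8 samplings. miR160e-3p was higher in all ethephon libraries at 6 hours, with 7, 4 and 9 reads in water and 10, 18 and 13 in ethephon (0.91, SE 0.562, adjusted p = 0.414). In CPM it was lower in all of them at days 1 and 8. It had 5, 8 and 9 reads in water and 5, 2 and 1 in ethephon at day 1 (-1.57, SE 0.72, adjusted p = 0.218), and 10, 7 and 7 against 1, 2 and 2 at day 8 (-1.85, SE 0.786, adjusted p = 0.0652). None of these differences was called in edgeR with TMM factors, the filter and all libraries. DESeq2 called that of miR160b-3p at day 2 (adjusted p = 0.0425) and that of miR160e-3p at day 8 (0.0469), the latter also called in edgeR with RLE factors, the size factors of DESeq2 (0.0475), with TMM without the most abundant sequence (0.0464) and in the 6 libraries of that day alone (0.0428). In edgeR, miR160b-3p at day 2 was called without the filter (0.0485) and without replicate 2 of ethephon (0.0223), and miR160a-3p at day 8 without replicate 3 of water (1.50, adjusted p = 0.0351). No library had more than 31 reads of a 3p member.

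Over the samplings, miR160a-3p and miR160e-3p changed in ethephon (adjusted p = 0.0197 for both), and neither was called in water (0.0668 and 0.401). miR160b-3p was called in neither series (0.0775 in water and 0.135 in ethephon). miR160a-3p fell from day 3 to day 8 in water by 1.17 (SE 0.478, adjusted p = 0.0471), where 28.1% of the sequences were called lower. In all, 4 of the 30 step tests of members were called and 10 had an unadjusted p under 0.05. At the steps of these calls, 7.02% to 28.1% of all tested sequences were called in the same direction. The share of all tested sequences called over every step was not determined, so the count does not by itself set the members apart. The step of miR160a-3p was -0.49 (adjusted p = 0.578) without replicate 2 of every group and -1.32 (0.0918) without replicate 1. It was not called in DESeq2 (-0.95, adjusted p = 0.109), with the other scalings (-0.98 to -0.71, adjusted p from 0.0777 to 0.237) or without the filter (-1.04, adjusted p = 0.127), and was called in limma-voom (-1.18, adjusted p = 0.0418). It was lost in 11 of 48 cases in which a single library was left out, with adjusted p of 0.263 without replicate 2 and 0.0707 without replicate 3 of water at day 3, 0.108 without replicate 1 and 0.206 without replicate 2 of water at day 8, and 0.0501 to 0.0571 without 1 of 7 libraries of other groups, which were replicate 3 of water at day 1, replicate 2 of water at day 4, and in ethephon replicate 1 at 6 hours, 3 at day 3, 2 at day 4, 1 at day 5 and 3 at day 6.

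miR160d-3p, under the filter, had its widest gap between treatments at the last sampling. At day 8 it had 0 reads in all 3 water libraries and 7, 4 and 10 reads in the ethephon libraries. A floor of 3 counts per water library stood at 29.7 to 63.5 CPM, with a mean of 43.8 CPM. The ethephon mean of 125 ± 52.5 CPM was 2.86-fold that mean floor, and the lowest ethephon library was at 67 CPM. At day 1 the counts were 1, 4 and 2 in water and 5, 6 and 4 in ethephon, and at 6 hours 4, 3 and 4 against 4, 6 and 10. At days 2 to 6, its CPM overlapped between treatments, with at most 6 reads in a library. Over all libraries it had 52 reads in water, with 8 of 24 libraries at 0, and 82 reads in ethephon, with 1 of 24 at 0. In edgeR without the filter 127 sequences were tested, and the share called in that fit is not given. The averaged log2 fold change of miR160d-3p was 0.83 (SE 0.382, adjusted p = 0.128). At day 8, the sampling of the widest gap, it was 5.97 (SE 1.38, adjusted p = 0.000629), a size that rests on 0 reads in water. The other samplings ran from -1.94 at day 3 to 1.4 at day 6, and none was called. With the filter, 15.8% of the 57 sequences were called higher at day 8. The change of the difference of miR160d-3p between samplings had an adjusted p of 0.0178.

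**Figure D3:**
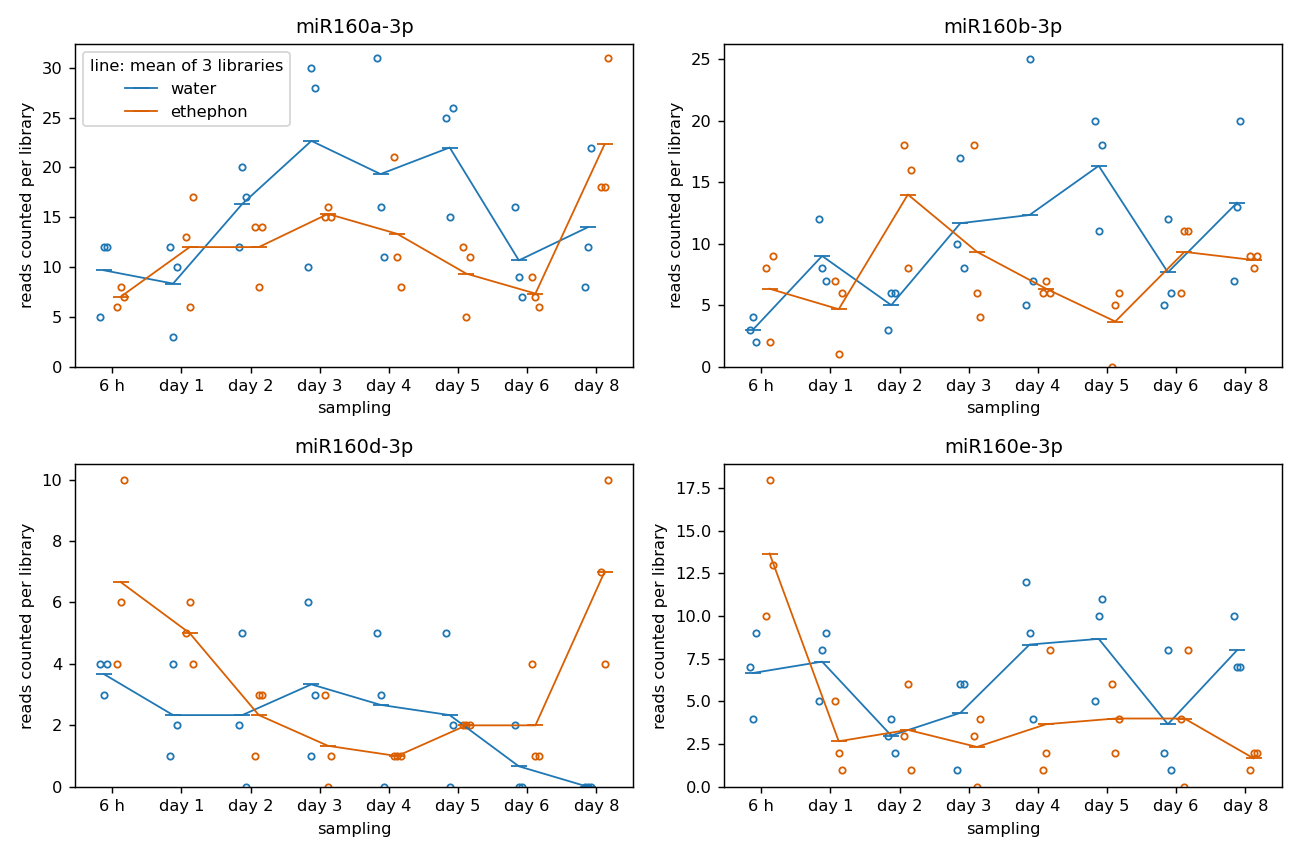
Reads counted per library (vertical axes) for the 4 3p members at the 8 samplings (horizontal axes), with water in blue and ethephon in orange, circles for libraries and lines through the means of 3. miR160d-3p is at 0 in all water libraries of day 8 and at 4 to 10 in ethephon, while miR160e-3p goes from 7 to 10 reads in water to 1 or 2 in ethephon.

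Further ratios within the family were tested in the same way as that of the 5p members, after their values had been seen, and p-values were adjusted over the 4 ratios. For the genes a to c, 5p over 3p reads went from a geometric mean of 12.3 in water to 7.54 in ethephon libraries. The log2 difference was -0.71 (permutation p = 0.00066, adjusted p = 0.00264) and was negative at 7 of 8 samplings. All ethephon libraries were below all water libraries at days 2, 6 and 8. For the genes d to f the same ratio went from 12.9 to 7.63, a log2 difference of -0.76 (permutation p = 0.0076, adjusted p = 0.0101), negative at 6 of 8 samplings. At day 8 it was 6.33, 19 and 15.8 in water and 3.94, 6.23 and 2.6 in ethephon. This ratio of d to f was not below 0.05 without replicate 1 of every group (-0.71, permutation p = 0.0811) or without replicate 3 (-0.42, permutation p = 0.269). A library without reads of miR160d-3p or miR160e-3p, replicate 2 of ethephon at day 3, gave a ratio of 109.

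Within the d to f group, the ratio of miR160d-3p to miR160e-3p was compared in the same way. The geometric mean ratio was 0.31 in water and 0.897 in ethephon libraries, a log2 difference of 1.53 (permutation p = 0.00187, adjusted p = 0.00374), positive at 6 of 8 samplings. Without day 8 it was 0.92 (permutation p = 0.0359, not adjusted), and it was -0.31 at 6 hours and -0.23 at day 3. At day 1 the ratios were 0.273, 0.529 and 0.263 in water and 1, 2.6 and 3 in ethephon. At day 8 they were 0.0476, 0.0667 and 0.0667 in water, each set by the added 0.5, and 5, 1.8 and 4.2 in ethephon. Ethephon was above water in all libraries at these 2 samplings and overlapped with it at the other 6. Without replicate 2 the difference was 1.2 (permutation p = 0.0633). The 3 bases that separate these sequences were read at 10 reads or fewer for miR160d-3p and 18 or fewer for miR160e-3p in any library.

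**Figure D4:**
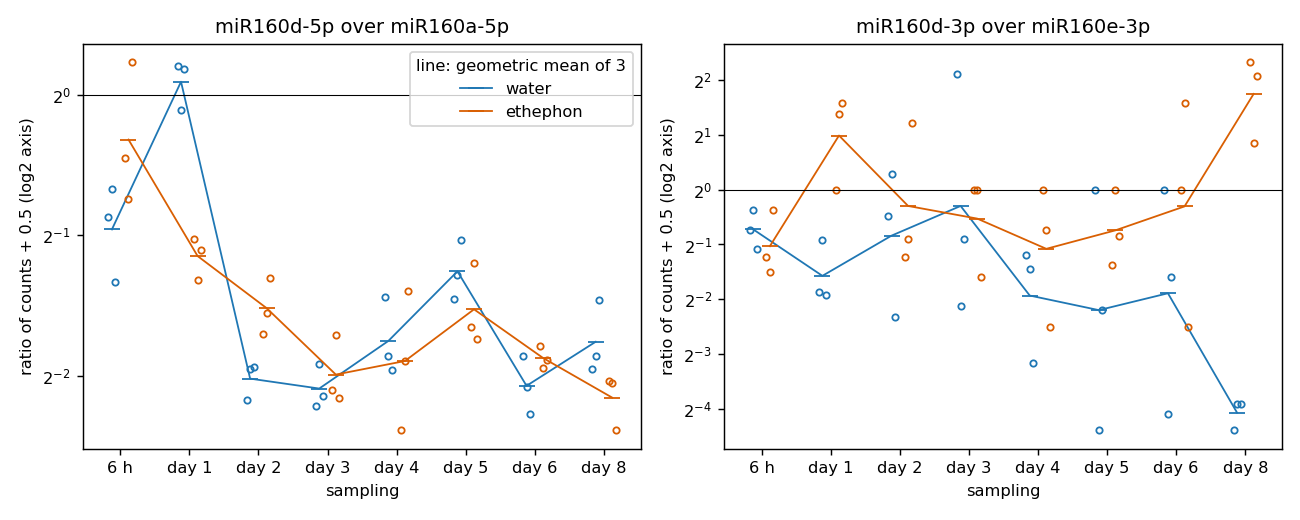
Ratio of counts, with 0.5 added to each and drawn on a log2 axis, of miR160d-5p over miR160a-5p (left) and miR160d-3p over miR160e-3p (right) at the 8 samplings. Circles are libraries, water in blue and ethephon in orange, and lines join geometric means of 3. The left ratio is near 1.07 in water at day 1 and 0.451 in ethephon, and the right ratio is 0.0596 in water and 3.36 in ethephon at day 8.

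As a whole, the 5p members summed to 6599 ± 1194 CPM in water and 3444 ± 543 CPM in ethephon libraries (n = 24 each), and the 3p members to 557 ± 225 and 505 ± 222 CPM. The family total was 7156 ± 1251 CPM in water and 3949 ± 701 CPM in ethephon. Per 10000000 sequencing tags it was 312 ± 49.2 and 159 ± 27.4. These totals are levels and were not tested, apart from the summed 5p and the summed 3p counts. Their averaged log2 fold changes were -0.93 for 5p and -0.11 for 3p.

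None of the other miRs listed for auxin signalling was called in the averaged contrast. They were miR167, which targets activating ARFs, miR390, which triggers small RNAs against a further group of ARFs, and miR393, which targets auxin receptors. The list held 11 sequences besides the 6 of miR160, of which 5 were tested. In the averaged contrast 0 of 5 were called in edgeR, 0 had an unadjusted p under 0.05, and both DESeq2 and limma-voom called 0. Their median log2 fold change was 0.10, against -0.05 over all 57. miR167a-5p, the most abundant with 23303 counts, stood at 7734 ± 4249 CPM in water and 8022 ± 3818 CPM in ethephon libraries (log2 fold change 0.10, SE 0.0803, adjusted p = 0.35). miR390a-5p stood at 717 ± 286 and 777 ± 275 CPM (0.12, SE 0.11, adjusted p = 0.404). miR393a-5p and miR393b-5p, at -0.02 and -0.03, had the same counts in all but 1 library and are not separate evidence. The shorter is contained in the longer, and whether the same reads were counted for both was not tested. At single samplings 2 of 40 tests were called, miR167a-5p higher at day 1 (0.87, adjusted p = 0.015, the single sequence called higher, 1.75%) and miR390a-5p higher at day 8 (0.94, adjusted p = 0.0228, with 15.8% called higher). Over the water samplings 4 of the 5 changed, against 47.4% of the 57, and over the ethephon samplings 2, miR167a-5p and miR390a-5p, against 50.9%. miR167a-5p was also called in the test of all 8 differences together (adjusted p = 0.0306, 38.6% of the 57 called) and in the contrast of day 1 with the other samplings (0.88, SE 0.247, adjusted p = 0.026, 3.51% called higher). The change of its difference between samplings had adjusted p = 0.103 in edgeR and was called in DESeq2. Whether these miRs and miR160 differed in their response was not tested.

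The sequences outside the family whose group means of log2(CPM + 1) were most like those of miR160a-5p over the 16 groups were miR168b-3p (Pearson's r = 0.67), miR159j-3p (0.65) and miR172a-3p (0.58). For miR160d-5p they were miR172a-3p (0.82), miR396a-5p (0.77) and miR168b-3p (0.70). Between the 5p members themselves r was 0.49. All of these sequences were lower in ethephon in the averaged contrast, from -0.36 for miR159j-3p to -0.60 for miR168b-3p, and the points share libraries and scale. The values are a description with no test.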

How the data were processed

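Small RNA reads of 48 apex libraries had been processed by the authors, who removed adapters, collapsed identical reads and aligned them to mature miRs of miRBase. How reads were aligned, and with how many mismatches, the sources used here do not state. The deposited table holds raw counts of 190 mature sequences and, beside them, a rounded score in which the authors had scaled reads to the sequencing tags of each library. A deposited list, a file of other content with no measurement, holds names and sequences. All 9120 scores matched the counts divided by the tags within rounding, which gave the tags of each library.

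Tests ran on the counts in edgeR 4.0.16 (R 4.3.3). Its filter filterByExpr (minimum count 10, minimum total 15) kept 57 of 127 sequences with a count. A quasi-likelihood model with 16 group means and TMM factors was fitted to the 48 libraries, and p-values were adjusted over the 57 sequences by Benjamini-Hochberg. The SE was taken as the size of a log2 fold change over the root of its F statistic, and 95% intervals follow from it. Ratios used a two-sided permutation test within samplings (Python 3.11.15, numpy 2.4.6). On simulated counts of the 57 sequences, the averaged contrast recovered 97.5% of changes of 1 on the log2 scale and a single sampling 42%. These shares are over sequences of all abundances and were not determined for the scarce 3p members. DESeq2 1.42.0, limma 3.58.1, other scalings, no filter, and leaving out libraries were tried as alternatives. Shares of the 57 sequences called are those of the main edgeR fit, and none is given for the alternatives. Libraries were taken as independent. Plants of a treatment came from the same few field blocks at every sampling, however, and the averaged p-values do not allow for this. Nothing in the labels ties replicate numbers to field blocks, and a difference between the blocks of a replication was not modelled.

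The rule for named miRs took all 6 members, the auxin list (miR160, miR167, miR390, miR393), and the 3 sequences most like each 5p member. Members, lists and the day 1 contrast were chosen with earlier results of these data known.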

Additional observations from a re-analysis of the deposited data

Results flagged for a closer look

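The response of miR160d-5p to ethephon at day 1 differed from its mean response at the other 7 samplings by -0.94 on the log2 scale (SE 0.284, adjusted p = 0.0348, edgeR quasi-likelihood test). The contrast was chosen with the day 1 level known, and the general test of change between samplings missed the threshold (adjusted p = 0.12).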

How the results depend on the processing

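The averaged fall of both 5p members kept its direction and its call under every alternative run, 60 for miR160a-5p (-1.03 to -0.76) and 59 for miR160d-5p (-1.11 to -0.84). The median of all 57 sequences, -0.05, was 0.07 without TMM factors and -0.17 on the scale of all tags. miR160b-3p in the averaged contrast was 0.21 without replicate 2 (range -0.40 to 0.21 over left-out libraries and replicates). Samples with the same replicate number did not deviate together (6 of 24 pairs had r over 0.1, median 0.02), so the numbers were not used as pairs. With a replicate block the averaged fold changes were -0.90 and -0.98, the day 1 contrast of miR160d-5p was -0.94, and all 44 results compared kept their call and direction.

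The number of called pairs of a 5p member and a sampling was 12, with 5 without TMM factors and 6 to 13 when libraries or replicates were left out. For 3p members it was 0, with 1 under RLE factors, TMM without the most abundant sequence, the scale of all tags, no filter (2 with miR160d-3p, tested only there), or only the 6 libraries of a sampling, 2 with DESeq2, and 0 to 1 when libraries were left out. The adjusted p of miR160a-5p over the water samplings was 0.379 without TMM factors, 0.122 on the scale of all tags, 0.201 with no filter, and 0.0158 to 0.337 with libraries or replicates left out. At day 6 the call of miR160d-5p was also lost under RLE factors, the other scalings, no filter, DESeq2, limma-voom and the 6 libraries of that day alone (adjusted p from 0.0531 to 0.319), and that of miR160a-5p was lost with the 6 libraries alone at day 5 (0.0812) and day 6 (0.0891) and with no filter at day 4 (0.0642). The interaction of miR160d-5p had adjusted p = 0.0235 with DESeq2 and 0.0452 with limma-voom. The day 1 contrast of miR160d-5p was -1.09 without TMM factors, -0.82 with TMM without the most abundant sequence, -0.74 on the scale of all tags (adjusted p = 0.0567, 0.0902 and 0.265), and -1.04 to -0.77 with libraries left out. With 5p counts summed, the day 1 contrast was -0.22 against 0.39 for miR160a-5p alone, and the step from day 1 to day 3 in water was -0.30 against 0.59. The ratio of miR160d-5p to miR160a-5p, -0.08, was 0.0896 without day 1 (chosen after seeing the data) and -0.179 to 0.0896 over all omissions. The causes of these shifts were not tested. The 3p members, at 0 to 31 reads per library, limit the comparison of arms.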
